A study of Mus musculus with 19 samples.

Results

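Leptin (Lep) and 8 other genes typical of fat cells (Adipoq, Retn, Cfd, Fabp4, Plin1, Cidec, Cidea and Ucp1) were described in soleus muscle of db/db mice and in C2C12 muscle cells. These 9 genes, read by 12 probes, were taken from 27793 gene names on 1-colour Agilent whole mouse genome arrays, as every probe that the scanner files name for them. Earlier results of these arrays were known when they were chosen: Lep was picked for its difference between db/db and control soleus, and the rest as genes of fat cells to set beside it. The values of Lep and the other 8 genes in soleus muscle are therefore a description, given with their spread and without a test.

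The series holds 19 arrays, 1 per sample. Soleus muscle came from 3 control mice (heterozygous littermates, labelled db -/+) and 4 db/db mice (labelled db +/+), all males of 12 weeks on standard chow, killed after a fast of 5 h. C2C12 cells, a mouse myoblast line, carried empty plasmids (6 samples, labelled WT) or plasmids for human HDAC4 and HDAC5 (6 samples), both under selection with hygromycin and geneticin at 500 µg/ml, and were harvested as myoblasts 48 h after seeding. The cells were stable transfectants, and nothing in the labels says that the 6 samples of a group came from separate transfections or cultures, so that p-values measure the spread between these samples. The methods count fewer biological replicates per group than there are C2C12 samples or db/db mice here, so that some C2C12 samples may not be independent and p-values may be too small.

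Leptin is a hormone that white fat cells secrete in proportion to the fat they store. It signals through the leptin receptor (Lepr) and JAK2 to STAT3 in the hypothalamus, where it lowers food intake, and skeletal muscle can also respond to it. The db mutation disrupts the long signalling form of the receptor, and db/db mice become obese and diabetic while circulating leptin is high. Muscle fibres are not the main source of leptin or of the other fat cell products described here, but a dissected muscle also contains fat cells between and around its bundles.

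The soleus arrays lay on 2 slides: control replicates 1 and 2 and db/db replicates 1 and 2 on slide 1, and control replicate 3 and db/db replicates 3 and 4 on slide 2. The arrays of slide 2 were brighter. Before scaling, the 75th percentile lay at intensities of 153.4 to 231.6 on slide 1 and 555.1 to 686.4 on slide 2, and 1028 to 3166 of 43379 spots were marked as outliers on slide 2 against 151 to 623 on slide 1. Levels are therefore given as log2 of the processed intensity relative to this 75th percentile, with marked spots left out unless stated, and differences also within each slide. Levels of different probes are not comparable on this scale. All 12 markers of slow muscle fibres and all 10 of fast fibres were well above background on each of the 7 soleus arrays. The arrays cannot check the db genotype, since the mutation alters splicing and the 2 Lepr probes were well above background on 0 and 1 of the 7 soleus arrays. In C2C12 cells the mouse Hdac5 probe had a mean log2 level of 3.60 with the HDAC4 and 5 plasmids and 2.19 with empty plasmids, and the mouse Hdac4 probe 0.23 and 0.28. Whether these probes read the human transcripts was not tested.

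The stretch of DNA just before the transcription start is shown for 3 of the genes, because their soleus differences diverged: Lep was higher, Cfd lower and Adipoq little different in db/db muscle. RefSeq windows on GRCm38.p6 were found for 7 of the 9 genes (not for Fabp4 and Cidea), 8 windows in all, since Cidec has more than 1 start. Each line gives the 250 bases before the start, 5′ to 3′. Capitals mark matches on either strand to 4 short motifs. They are TTGCGCAA, a palindrome that C/EBP factors bind. They are also GGGCGG, which factors of the Sp family bind. The others are TATAA, bound by the general initiation machinery, and CCAAT, bound by factor NF-Y.
Lep, chr6:29059971-29060220, plus strand: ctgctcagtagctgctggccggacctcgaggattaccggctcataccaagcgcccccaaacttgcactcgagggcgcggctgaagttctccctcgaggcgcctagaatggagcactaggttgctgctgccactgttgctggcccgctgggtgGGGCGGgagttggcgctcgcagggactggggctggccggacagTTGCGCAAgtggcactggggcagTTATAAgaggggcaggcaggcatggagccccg
Cfd, chr10:79890603-79890852, plus strand: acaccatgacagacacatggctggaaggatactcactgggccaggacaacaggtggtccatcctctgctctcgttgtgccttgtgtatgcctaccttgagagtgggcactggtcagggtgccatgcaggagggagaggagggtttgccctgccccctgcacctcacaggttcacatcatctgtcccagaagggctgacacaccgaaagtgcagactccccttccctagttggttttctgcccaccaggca
Adipoq, chr16:23146286-23146535, plus strand: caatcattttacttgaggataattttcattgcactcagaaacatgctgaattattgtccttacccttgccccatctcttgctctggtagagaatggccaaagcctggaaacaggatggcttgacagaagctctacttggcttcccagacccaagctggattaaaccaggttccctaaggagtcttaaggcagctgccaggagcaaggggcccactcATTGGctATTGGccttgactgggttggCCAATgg

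The Lep window holds TTGCGCAA from base -55 to -48 and GGGCGG from base -98 to -93. Its capitals TTATAA are TATAA on both strands, overlapping, between bases -32 and -27. The Adipoq window holds CCAAT 3 times, and the Cfd window holds none of the 4 motifs. Among 32851 windows of the same length, 0.164% hold TTGCGCAA, 32.7% GGGCGG, 22.8% TATAA and 33.8% CCAAT. Of the 8 windows of the members, 1 holds TTGCGCAA, that of Lep. These matches describe the sequence only.

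In soleus muscle, Lep was high on all 4 db/db arrays and low on all 3 control arrays. Its probe (mm9, chr6:29023234-29023293) is printed as 10 spots on each array. The log2 level was -3.70, -3.95 and -3.36 in control replicates 1, 2 and 3, and -0.27, 0.86, -0.72 and -0.06 in db/db replicates 1 to 4. The lowest db/db array lay 2.63 above the highest control array, so the groups did not overlap. The mean was -3.67 ± 0.29 (SD, n = 3) in control and -0.05 ± 0.67 (SD, n = 4) in db/db muscle, a difference of 3.62 (limma SE 0.41). No fold is given, because the control level was close to background.

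The control level of Lep was at the limit of detection. The probe was well above background on 1 of the 3 control arrays, replicate 3, and on all 4 db/db arrays. On control replicates 1 and 2 it lay below the lowest signal that was well above background on the same array, at -3.30 and -3.31. The size of the difference therefore depends on how background was removed, and with the normexp correction it was 1.80 (SE 0.37), no larger in size than that of Cfd under the same correction (-1.90). The 10 spots agreed closely within an array: their SD over spots kept was 0.13 to 0.37 on the soleus arrays. In db/db replicate 1, 2 of the 10 spots were marked as outliers, and the lowest of them was at -5.39. With marked spots kept, the level of this array was -1.10 and the groups still did not overlap.

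Lep was higher on both slides. On slide 1 the db/db mean exceeded the control mean by 4.12, and on slide 2 by 2.97. With the slide as a block the difference was 3.66 (SE 0.38). When each of the 7 arrays was left out in turn, it was 3.32 to 3.84.

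**Figure D1:**
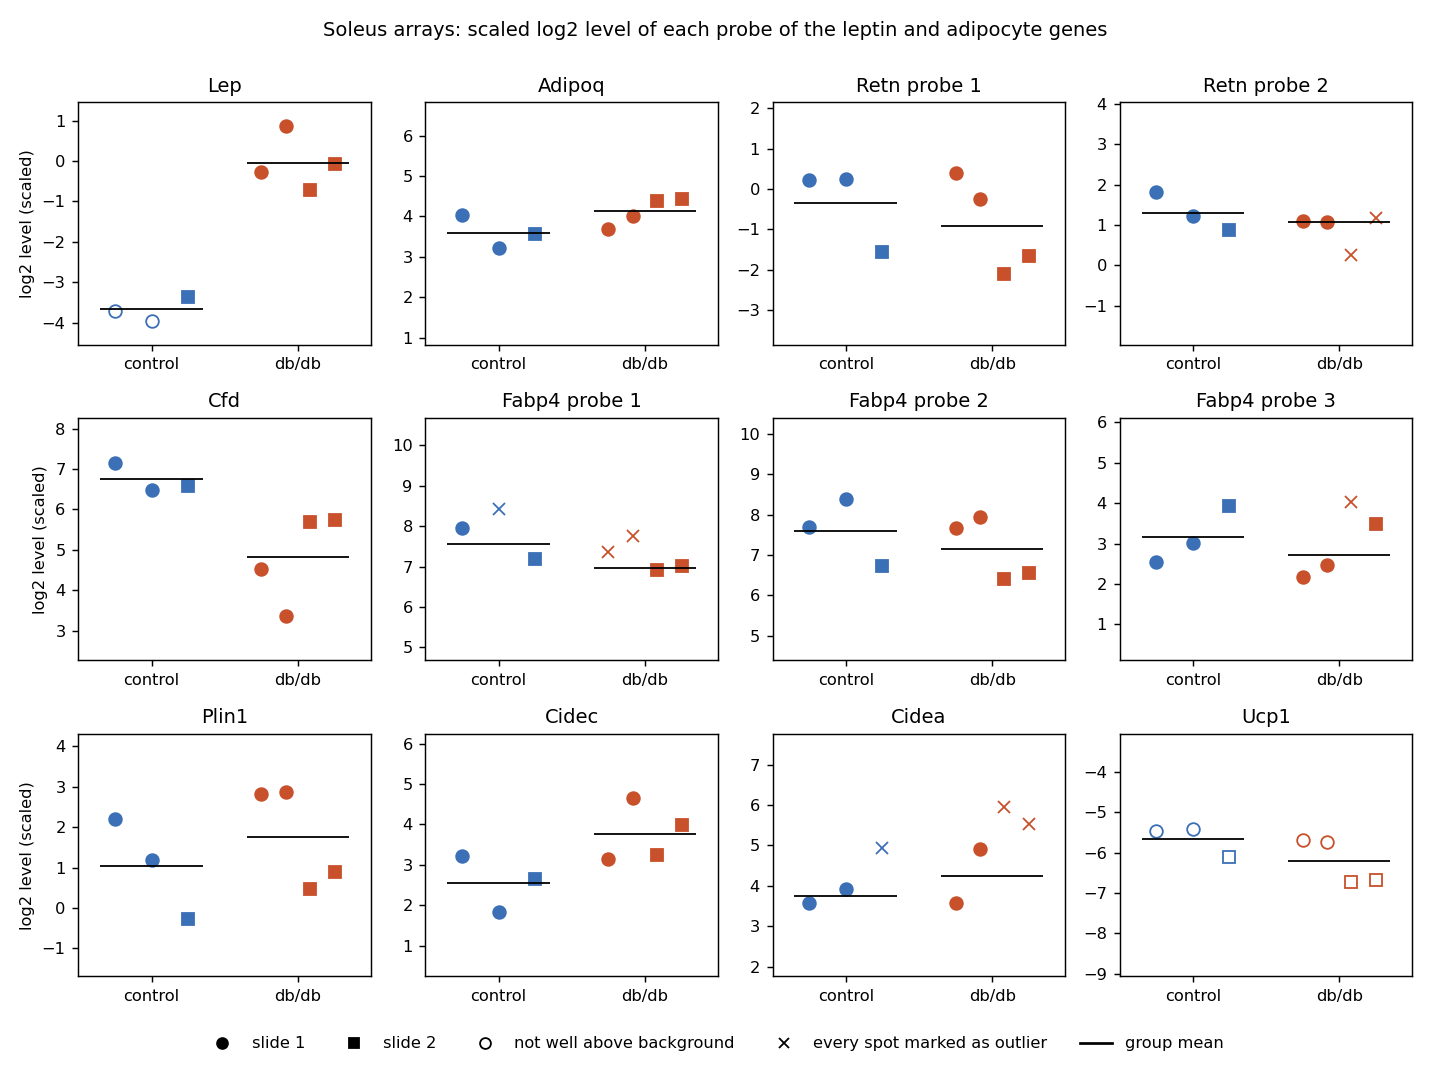
Scaled log2 level of each of the 12 probes on the 7 soleus arrays, control in blue and db/db in orange, circles for slide 1 and squares for slide 2, open symbols where the probe was not well above background and crosses where every spot was marked as an outlier and left out; lines are group means without crosses, and all panels span at least 6 log2 units. Lep separates the groups upwards, from -3.36 at most in control to -0.72 at least in db/db, and Cfd downwards.

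The other secreted products of fat cells did not share this difference. Adipoq encodes adiponectin, a hormone of fat cells that improves insulin sensitivity. Its probe (mm9, chr16:23157576-23157635) gave 4.03, 3.21 and 3.56 in control and 3.70, 4.01, 4.37 and 4.44 in db/db replicates. The groups overlapped, with control replicate 1 above 2 of the db/db arrays. The difference was 0.53 (limma SE 0.33), and each db/db array exceeded the control mean of its own slide, by 0.08 to 0.88.

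Cfd encodes complement factor D, also called adipsin, a serine protease of the alternative complement pathway that fat cells secrete. Its probe (mm9, chr10:79355302-79355361) gave 7.15, 6.49 and 6.59 in control and 4.53, 3.37, 5.69 and 5.74 in db/db replicates. All 4 db/db arrays lay below all 3 control arrays, and the 2 of slide 1 were lowest. The difference was -1.91 (limma SE 0.59), which is 3.76-fold lower in db/db muscle, with -2.87 within slide 1 and -0.87 within slide 2.

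Retn encodes resistin, a fat cell hormone of rodents that opposes insulin. Its probe 2 (mm9, chr8:3656107-3656928, across a span of 822 bases) gave 1.82, 1.23 and 0.88 in control and 1.09 and 1.08 in db/db replicates 1 and 2. The spots of db/db replicates 3 and 4 were marked as outliers, at 0.26 and 1.18, so that the difference of -0.22 (limma SE 0.42) rests on 5 arrays. The groups overlapped, and without control replicate 1 the difference was 0.03. Averaging the unmarked probes gave -1.13, but db/db replicates 3 and 4 then entered through probe 1 alone. Probe 1 reads lower than probe 2, so this value is not a measured fall of Retn. With marked spots kept, probe 2 differed by -0.41.

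Probe 1 of Retn (mm9, chr8:3656145-3656966) was lower on slide 2 than on slide 1 in both groups, at 0.23, 0.25 and -1.55 in control and 0.40, -0.25, -2.11 and -1.67 in db/db replicates. Its unscaled processed intensity stayed between 159 and 236 on all 7 arrays, while the arrays themselves differed in brightness. Within slides the difference was -0.17 and -0.34.

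Among the genes of the lipid droplet and of fatty acid transport, the groups overlapped for Plin1, Cidec and 2 of the 3 probes of Fabp4. Fabp4, the fatty acid binding protein of fat cells and macrophages, has 3 probes on the array. Probe 2 (mm9, chr3:10204452-10204511) gave 7.69, 8.38 and 6.74 in control and 7.66, 7.95, 6.40 and 6.56 in db/db replicates. The groups overlapped, and the spot was saturated on 1 control array and 3 db/db arrays, where a level is only a lower bound. Its difference was -0.46 (limma SE 0.54), and -0.23 and -0.26 within slides 1 and 2. Probe 1 (chr3:10204533-10205262) differed by -0.61 on the 4 arrays with an unmarked spot, without overlap, and by -0.60 on all 7, with overlap. It was saturated on 1 control array and 2 db/db arrays, so that the direction of probes 1 and 2 is not settled. Probe 3 (chr3:10208442-10208501), saturated on 0 of the 7 arrays, differed by -0.45, and by -0.12 with marked spots kept. In the authors' deposited matrix the Fabp4 difference was 0.15.

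Plin1, perilipin 1, coats the lipid droplets of fat cells and controls access of lipases. Its probe (mm9, chr7:86866112-86866171) gave 2.21, 1.19 and -0.26 in control and 2.83, 2.88, 0.47 and 0.89 in db/db replicates. The arrays of slide 2 were lower in both groups, and the groups overlapped. The difference was 0.72 (limma SE 0.80) without regard to slide and 1.07 (SE 0.28) with the slide as a block, since each db/db array exceeded the control mean of its slide by 0.73 to 1.18.

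Cidec, which promotes fusion of lipid droplets into the single large droplet of white fat cells, gave 3.21, 1.83 and 2.64 in control and 3.14, 4.65, 3.25 and 3.98 in db/db replicates (mm9, chr6:113374693-113374752). The groups overlapped by 1 db/db array, replicate 1, which lay below control replicate 1. The difference was 1.19 (limma SE 0.49). Every db/db array exceeded the control mean of its slide, by 0.61 to 2.14.

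The genes that mark brown fat did not separate the groups. Cidea, a droplet protein of brown and beige fat cells, was measured without marking only on slide 1, at 3.58 and 3.93 in control and 3.58 and 4.92 in db/db replicates 1 and 2 (mm9, chr18:67527351-67527410). On slide 2 all its spots were marked as outliers, at 4.93 in control replicate 3 and 5.94 and 5.52 in db/db replicates 3 and 4. The difference over the 4 unmarked arrays was 0.49 (limma SE 0.59). Without db/db replicate 2 it was -0.18, and with marked spots kept it was 0.84 and the groups overlapped.

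Ucp1, the uncoupling protein by which brown fat cells make heat, was not well above background on any of the 7 soleus arrays (mm9, chr8:85821788-85821847). Its levels, -5.41 to -6.72, lay below every array's lowest signal that was well above background, and no difference is given.

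The members were also set side by side, array by array, on the scale without the normexp correction. With marked spots kept, so that every probe had a value, Lep exceeded the control mean of its slide by 2.78, 4.74, 2.55 and 3.21 in db/db replicates 1 to 4. On each of these arrays the value was above those of all 10 probes of the other members, Ucp1 left aside. The next highest was Plin1 at 1.14 in replicate 1, Cidec at 2.14 in replicate 2, Cidea at 1.01 in replicate 3 and Cidec at 1.33 in replicate 4. The lowest was Cfd on all 4 arrays, at -2.29, -3.45, -0.90 and -0.85. Replicate 2, with the highest Lep and Cidec, also had the lowest Cfd.

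**Figure D2:**
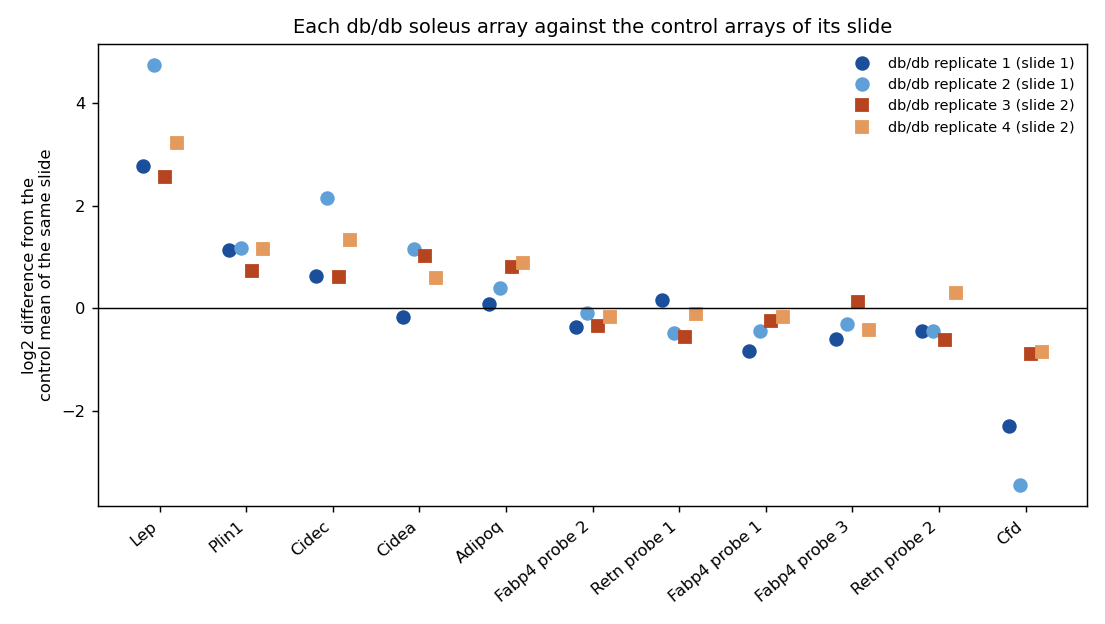
Log2 difference of each db/db soleus array from the mean of the control arrays on its slide, for 11 probes ordered by their median, marked spots kept; blue circles are replicates 1 and 2 on slide 1 and red or orange squares are replicates 3 and 4 on slide 2. Lep lies between 2.55 and 4.74 and Cfd between -3.45 and -0.85, with the other probes between them on each array.

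Counted over the 12 probes with marked spots left out, 5 had a higher and 7 a lower mean in db/db muscle. The 7 include every probe of Fabp4 and of Retn, and that of Ucp1, which was above background on no soleus array. By detected gene, Lep, Adipoq, Plin1, Cidec and Cidea had a higher mean, and Cfd, Fabp4 and Retn a lower mean. The groups did not overlap for 1 probe that was higher (Lep) and 2 that were lower (Cfd and probe 1 of Fabp4), and for 1 (Lep) and 1 (Cfd) with marked spots kept. Over all 10660 genes measured on every soleus array, counted by gene and not by probe, 4.42% were higher and 4.93% lower in db/db muscle without overlap. Since the members were chosen on this contrast, nothing is read from these shares.

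**Figure D3:**
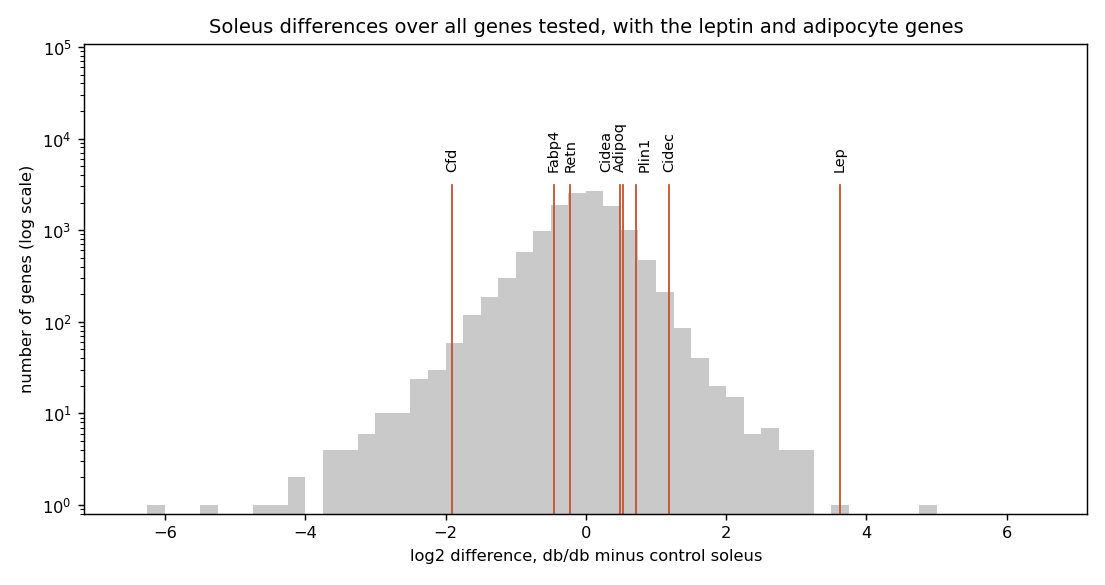
Histogram of the log2 difference between db/db and control soleus over 13109 genes tested (grey; the vertical axis is logarithmic), with red lines at the 8 members that passed the filter on dim probes. Lep lies at 3.62 and Cfd at -1.91, and the other members between -0.46 and 1.19.

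Markers of other cell types were summed in the same muscles. Levels were summed over each list, in multiples of an array's 75th percentile, a measure in which the brightest probes weigh most. Saturated spots were kept, and their part in these sums was not counted. The genes named for each list are those of largest difference, and the list median stands beside them. Endothelial markers (8 of 8 tested) summed to 59.9 to 80.2 in control and 39.3 to 56.4 in db/db muscle, without overlap and with a median difference of -0.60, with Kdr at -1.10 (adjusted p = 0.769) and Cdh5 at -1.06 (adjusted p = 0.761). Erythrocyte markers (3 of 6 tested, Epb42 above background on no array) summed to 164 to 370 and 90.3 to 158, with a median of -1.74 and with Hbb-bt, an adult beta globin, at -1.74 and Alas2, of haem synthesis in red cells, at -1.76 (adjusted p = 0.168 and 0.825). With the slide as a block Hbb-bt passed (adjusted p = 0.0275, and up to 0.669 over the alternatives).

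Stromal and preadipocyte markers (12 of 14 tested, Tcf21 on no array) summed to 493 to 558 in control and 316 to 470 in db/db muscle. Their median difference was 0.09 and the range -1.43 to 0.37, with the collagen genes Col1a1 at -1.43 (adjusted p = 0.618) and Col3a1 at -0.88 (adjusted p = 0.779) at its lower end. Macrophage markers (11 of 13 tested, Itgam on no array) summed to 42.0 to 128 and 47.2 to 120. Their median was 0.12 and the range -0.50 to 1.35, with Cd163 at 1.35 (adjusted p = 0.931) and Csf1r at 0.98 (adjusted p = 0.774) at its upper end. Peripheral nerve markers (6 of 7 tested, each of the 7 above background on at least 1 array) summed to 32.8 to 44.4 and 34.5 to 79.4, with a median of 0.09 and with Prx, a gene of myelinating Schwann cells, at 0.52 (adjusted p = 0.968). None of these genes passed limma's adjusted p in soleus muscle without the block, and the part of these cell types in the members' values was not tested. In whole muscle, a change in the number of fat cells and a change in RNA per fat cell cannot be told apart.

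None of the muscle fibre genes passed. The 12 slow fibre genes had a median difference of -0.43 and a range of -0.93 to 0.07. Mb, myoglobin, was at -0.68 and Myl3, a slow myosin light chain, at -0.60 (adjusted p = 0.951 and 0.958). With the slide as a block Mb and Myl3 were at -0.44 and -0.33, while Tnni1 and Tnnc1 were higher, by 0.29 and 0.17. Saturated spots were kept, and saturation of these bright probes was not counted. The 10 fast fibre genes had a median of -0.65, with the fast myosin Myh4 at -3.11 and Actn3, a fast fibre actinin, at -1.94 (adjusted p = 0.611 for both). The median over all genes was -0.02.

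The wider lists of fat cell and leptin genes give the setting for Lep. They hold 109 other genes on the array, of which 96 were tested in soleus muscle. By limma with Benjamini-Hochberg adjustment over all 13109 genes, 0 of the 96 passed, against 0.00763% (1 gene) over the whole array. At an unadjusted limma p under 0.05, 8 passed (8.33%), against 6.35% over the whole array. The methods' t-test passed 0 after adjustment, against 0.0153% of all genes. Before adjustment it passed 9, for which the share over all genes was not counted, so nothing is read from it. The median difference of the 96 was -0.12. With the slide as a block 2 passed, Cish and Pnpla3, both lower, against 0.305% of all genes.

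Of the other white fat cell genes 41 of 47 were tested, and their median difference was -0.15. The range was -3.61 to 1.64, with Trarg1 at its upper end (limma adjusted p = 0.618). At an unadjusted limma p under 0.05, 3 were higher and 2 lower in db/db muscle, against 6.35% of all genes in either direction. Angptl4, a secreted inhibitor of lipoprotein lipase that fasting induces, gave 6.84, 6.36 and 4.74 in control and 1.12, 3.72, 1.51 and 3.14 in db/db replicates. All db/db arrays were below all control arrays, with a difference of -3.61 (SE 0.76, limma adjusted p = 0.334). Pnpla3, a lipid droplet protein, gave 1.37, 1.61 and 1.12 in control and -0.37, -1.55, -1.24 and -2.05 in db/db replicates. It was lower on every db/db array, by -2.67 (SE 0.42, limma adjusted p = 0.149, and from 0.0414 with the slide as a block to 0.785 over the alternatives).

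Of the other brown fat cell genes 22 of 28 were tested, with a median of -0.16. Slc25a20, the mitochondrial carnitine carrier, was 1.88 higher (SE 0.60) on arrays that did not overlap, and Ucp3, an uncoupling protein of muscle, differed by -0.91 (SE 0.74); neither passed (limma adjusted p = 0.611 and 0.951). Many of these genes are also active in muscle fibres. Ppargc1a, the coactivator of mitochondrial biogenesis, differed by 0.11 (SE 0.38). The paper reports lower Ppargc1a in db/db mice in another muscle, tibialis anterior. Elovl3, Lhx8 and Bmp8b were, like Ucp1, above background on no soleus array.

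Of the leptin signalling genes 19 of 20 were tested, with a median of -0.10. The receptor gene Lepr was the untested one. Cish, a feedback inhibitor of cytokine receptors that STAT5 induces, gave 2.93, 1.76 and 2.09 in control and -0.04, -1.18, -2.06 and -2.48 in db/db replicates. Its groups did not overlap, with a difference of -3.70 (SE 0.60, limma adjusted p = 0.168, and from 0.0371 with the slide as a block to 0.685 over the alternatives). Socs3, the inhibitor that STAT3 induces after leptin binds its receptor, differed by 0.57 (SE 0.37, adjusted p = 0.938). Prkaa1, a catalytic subunit of AMP kinase, differed by -1.0 (SE 1.09), a mean set by db/db replicate 1 at -2.52, with the other 6 arrays between 1.66 and 2.17.

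Of the transcription factors known to act on Lep, 14 of 14 were tested, with a median of 0.04 and a range of -0.44 to 0.78. None passed. Cebpa, whose product binds the C/EBP palindrome shown above, differed by 0.40 (SE 0.31), Sp1, whose product binds GC boxes, by -0.44 (SE 0.34), and Pparg, the master regulator of fat cell formation, by 0.05 (SE 0.31).

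**Figure D4:**
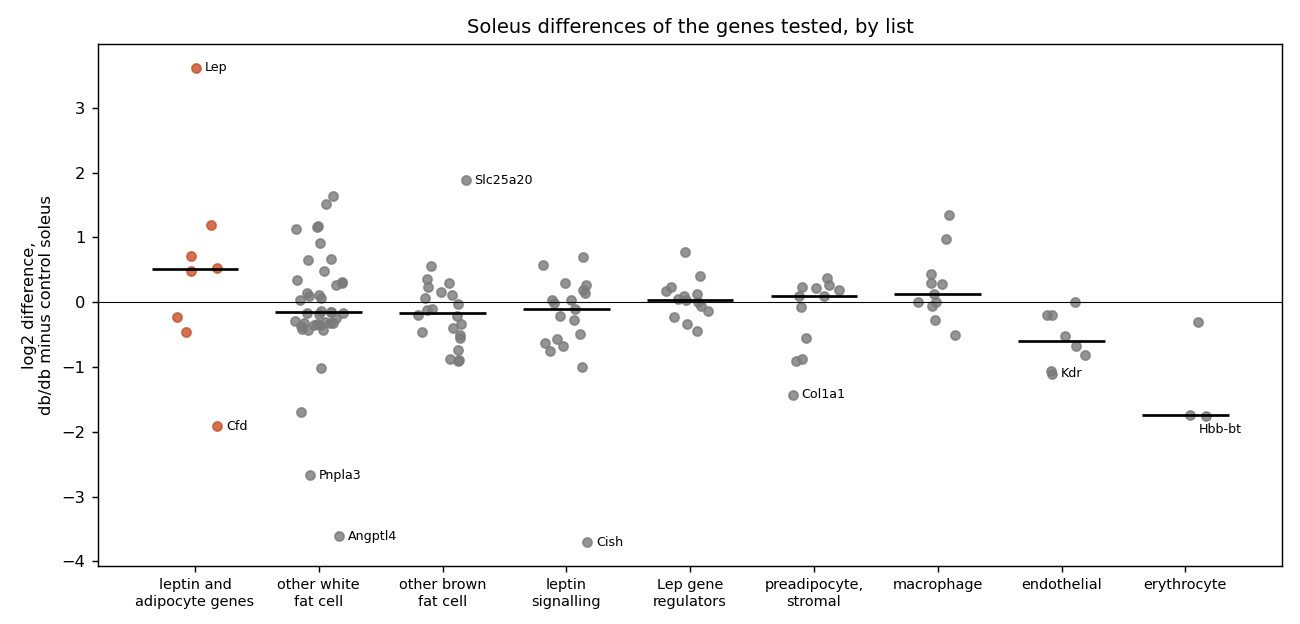
Log2 difference between db/db and control soleus of each gene tested (points) and the median (line), for the leptin and adipocyte genes in orange and 8 other lists in grey; the horizontal spread within a list carries no information. The list medians lie between -1.74 (erythrocyte, 3 genes) and 0.51 (leptin and adipocyte genes, which were chosen on this contrast).

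By pattern over the 7 soleus arrays, the genes most like Lep among 9904 genes above background on all db/db arrays were not fat cell genes of these lists. Pearson's r with Lep was 0.993 for Acoxl, an acyl-CoA oxidase-like gene, 0.986 for Crebl2, a bZIP factor, 0.979 for Osr2, a zinc finger transcription factor, 0.978 for a probe listed only as NAP023694-001 and 0.975 for Brms1, a component of histone deacetylase complexes. These r describe 7 arrays that fall into the control and db/db groups, and the genes were ranked by them. In the same ranking Cidec stood at 206, Adipoq at 913, Plin1 at 1926, Fabp4 at 7050 and Cfd at 9802. The differences of the 5 genes ran from 0.93 (Crebl2 and Brms1) to 2.02 (Osr2), all below that of Lep. Osr2 was above background on 0 of the 3 control arrays.

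In C2C12 cells, which contain no fat cells, most members were not detected. Lep, Adipoq, Cidec, Cidea and Ucp1 were well above background on 0 of the 12 arrays. The Lep probe lay at a mean of -7.88 ± 0.27 (SD, n = 6) with empty plasmids and -7.52 ± 0.58 (SD, n = 6) with HDAC4 and 5, under the detection limit of each array, and no fold is given. Plin1 was above background on 1 array of each group, both of replicate 5, at -5.37 and -4.57. Cfd was above background on 1 array, HDAC4 and 5 replicate 5, at -3.62, and Retn on 1, empty plasmid replicate 1, at -3.84 for probe 2. These 8 genes did not pass the filter on dim probes and were not tested.

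Fabp4 was the exception. It was the only member tested in C2C12 cells, because it was well above background on every HDAC4 and 5 array, the group where it was high. The members were picked for soleus muscle and as fat cell genes, though with earlier results of these data known. For probe 2 the log2 level ran from -6.33 to -4.14 with empty plasmids (median -5.80) and from -3.62 to -3.34 with HDAC4 and 5 (median -3.51). The groups did not overlap, although empty plasmid replicate 5 lay well above the other 5, the next of which was at -5.62. Over 12928 genes measured on every C2C12 array, 27.8% were higher with HDAC4 and 5 without overlap. The difference was 2.14 (limma SE 0.29, Benjamini-Hochberg adjusted p = 2.26e-05 over 14179 genes). The adjusted p was 8.4e-05 with the slide as a block and 9e-05 when no filter on dim probes was set. Probe 1, which reads a neighbouring part of the gene, gave -5.61 ± 0.16 and -3.42 ± 0.10 (SD, n = 6 each), a difference of 2.18.

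Probes 1 and 2 of Fabp4 were each well above background on 6 of 6 HDAC4 and 5 arrays and on 1 of 6 empty plasmid arrays. Fabp4 thus passed the filter only through the group where it was high, so that its adjusted p values are a description and not support. The size of the rise rests on a dim control level, and no fold is given. It was 1.12 (adjusted p = 0.00307) with normexp, and 0.44 (adjusted p = 0.17) in the authors' deposited matrix, where dim spots are blank, and the adjusted p ranged from 5.11e-08 to 0.17 over the alternatives. Probe 3 was above background on no C2C12 array and differed by 0.36. Within the 3 slides the difference of probe 2 was 2.29, 2.40 and 1.73. Of all 14179 genes tested in C2C12 cells 69.3% passed the adjusted p, 36.5% higher and 32.8% lower with HDAC4 and 5, so a call was the common outcome there.

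**Figure D5:**
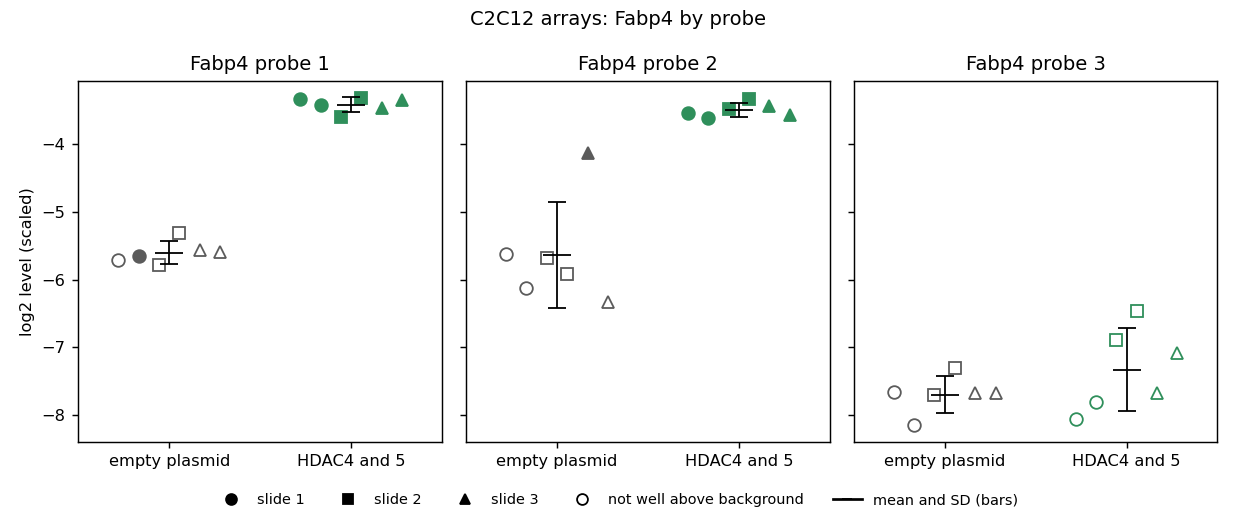
Scaled log2 level of the 3 Fabp4 probes on the 12 C2C12 arrays, by plasmid, with symbols for the 3 slides, open where not well above background, and bars for the mean and SD (n = 6). For probes 1 and 2 all HDAC4 and 5 arrays lie above all empty plasmid arrays, and probe 3 stays below background throughout.

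The wider lists moved in both directions in C2C12 cells. Of their 75 genes tested, 58 passed (77.3%, against 69.3% of all genes), 26 higher and 32 lower with HDAC4 and 5. Pparg fell by 1.10 (SE 0.09, limma adjusted p = 1.55e-07), Cebpd, an early factor of fat cell formation, fell by 1.59 (adjusted p = 2.15e-11), and the stress factor Ddit3 rose by 2.39 (adjusted p = 4.68e-13). Of the signalling genes, Socs3 fell by 1.04 (adjusted p = 5.41e-10), Cish fell by 2.24 (adjusted p = 1.07e-12) and Prkaa2 was at least 5.77-fold higher (adjusted p = 2.49e-10). Prkaa2 was above background on no empty plasmid array and entered the test only through the HDAC4 and 5 group.

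Of the white fat cell genes, 6 rose and 14 fell among 30 tested, where 36.5% of all genes rose and 32.8% fell. Npr3, a natriuretic peptide clearance receptor, fell by 5.21 (adjusted p = 8.61e-09). Its level was then above background on 1 of the 6 HDAC4 and 5 arrays, so that the size of this fall is uncertain. Rarres2, which encodes chemerin, fell at least 12.2-fold (adjusted p = 7.61e-08), to a level above background on no HDAC4 and 5 array. Of the brown fat cell genes, 6 rose and 6 fell among 14 tested, beside the same shares of all genes. Cox8b fell at least 14.5-fold and Fabp3, the fatty acid binding protein of muscle, fell by 4.90 (adjusted p = 4.85e-08 and 5.72e-15). Both are also genes of muscle fibres. Cox8b was above background on no HDAC4 and 5 array, and Fabp3 on 4 of the 6. Ppargc1a rose by 1.41 (adjusted p = 3.74e-08). Lepr was not tested, since it was above background on at most 2 of the 6 arrays of a group.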

How the data were processed

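Total RNA (100 ng) of 7 soleus muscles and 12 C2C12 samples was labelled with 1 dye and hybridised to Agilent arrays of 43379 non-control spots and 41174 probes. The authors scanned each array with Agilent Feature Extraction 9.5.1.1 and deposited intensity values per spot: a mean, a background, and a processed intensity from which background and a spatial trend had been removed within the array, with no scaling across arrays. They also deposited a matrix whose values, for 15 of 19 columns, are the processed signal expressed as a ratio to a constant of that array. Its db/db columns carry other numbers than the scanner files, so it served by group only, as an alternative. Probe positions are on mm9, as deposited.

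For each array, processed intensities were put on the log2 scale and the 75th percentile over its spots was subtracted. Spots marked as outliers were left out, saturated spots kept, and spots of a probe averaged. A probe was well above background where over a share of 0.5 of its spots were. Gene names were updated by RefSeq accession (27198 probes matched, 2694 renamed). Genes entered a test if well above background on every measured array of at least 1 group, with the probe of highest mean. Where a group was below background on all arrays, a fold is a lower bound, taken against the higher of the probe's own level and each array's lowest signal that was well above background. Array number limits the precision.

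Soleus and C2C12 groups were tested separately by limma 3.58.1 under R 4.3.3, calling genes below 0.05 after Benjamini-Hochberg adjustment over the whole array. The methods' t-test, run on the same values, is an alternative. Outside the members, the genes named are the 2 with the largest difference in each list. In soleus muscle they come from genes whose unmarked spots were well above background on all 7 arrays, and in C2C12 cells from those that passed. Soleus genes with every spot marked on an array were thus passed over, such as Acta1 (-0.93) and Cebpd (0.78). Named besides are Lepr, Socs3, Pparg, Cebpa and Ppargc1a, and the 5 genes most like Lep. The value of 1 gene that this rule names is not reported here. The members and all lists were chosen with earlier results of these data known. The steps were tested on simulated data.

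Deviations from the group mean correlated, across genes, between arrays sharing a replicate number, at 0.426 to 0.690 in the 3 soleus pairs and 0.186 to 0.547 in the 6 C2C12 pairs, and so did those of other arrays of the same slide (0.333 to 0.743 and 0.193 to 0.528). The numbers therefore pair the samples through the slide. Replicates of a group correlated at 0.826 or more in soleus muscle and 0.987 or more in C2C12 cells, and no 2 arrays were identical. Alternatives tried were the deposited matrix, normexp background correction (offset 50), quantile normalization, no filter or a stricter filter on dim probes, averaging a gene's probes, a block for the slide or for the replicate number, leaving out each soleus array, and, chosen after seeing the data, the percentile over unmarked spots and marked spots kept.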

Additional observations from a re-analysis of the deposited data

Results flagged for a closer look

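In C2C12 cells with empty plasmids, probe 2 of Retn stood at a log2 level of -3.84 in replicate 1, far above the other 5 arrays of its group, the nearest of which was at -7.42. It was the only C2C12 array on which this probe was well above background.

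In the same group, probe 2 of Fabp4 stood at -4.14 in replicate 5, with the nearest other array at -5.62, and this array was again the only one of the 6 where the probe was well above background. Probe 1 of Fabp4 lay between -5.79 and -5.31 on all 6 arrays of the group, replicate 5 included, so the 2 probes differed there. Of 32 groups of arrays examined for such a gap, 2 showed one, where chance gives about 1.6.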

How the results depend on the processing

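The Lep difference in soleus muscle stayed positive under all 16 alternatives, at 1.80 with normexp background correction and 3.32 to 3.84 when arrays were left out in turn. Cfd stayed negative under all 17 (-2.21 to -1.42), and Adipoq, Cidec and Plin1 positive. Plin1 was lowest, at 0.07, without control replicate 3. Fabp4 turned positive in the deposited matrix (0.15), Retn without control replicate 1 (0.03) and Cidea negative without db/db replicate 2 (-0.18). Averaging a gene's probes gave -1.13 for Retn, with db/db replicates 3 and 4 entering through probe 1 alone. The count of soleus genes past the adjusted p, 1 in all (Mup1), was 40 with the slide as a block, 2 with quantile normalization, the methods' t-test or the percentile over unmarked spots, and 0 with normexp, the deposited matrix or the stricter filter on dim probes. It was 0 to 2 when arrays were left out: 0 without control replicate 1 or 2 or db/db replicate 2, 3 or 4, and 2 without control replicate 3. Of the other fat cell and leptin genes in soleus muscle, 0 passed in the main analysis and 2 with the slide as a block, and 0 without any single array. Of the members in C2C12 cells, 1 passed (Fabp4), 0 in the deposited matrix or under the stricter filter, which no member passes, and 2 without a filter, where Adipoq, above background on no array, also passed. The cause of these shifts was not tested. With the replicate number as a block, 1 soleus gene and 10768 C2C12 genes passed, and the Lep difference was 3.62. Fabp4 in C2C12 cells then had a limma adjusted p of 0.000204, with the limit of the filter given above. The block changed no call on the members in C2C12 cells. Lep under the stricter filter and the members' soleus differences under the t-test were not run. The control level of Lep and the empty plasmid level of Fabp4 lay near background, which limits how well their rises can be sized.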
